A study of Mus musculus with 12 samples.

Results

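Mouse embryonic stem cells lacking Dppa2 and Dppa4, to which SUMO-deficient forms of both proteins had been returned, were compared gene by gene with cells that had not been knocked out, called parental here. The comparison was between 6 of the series' 12 arrays, the 3 mutant add-back arrays and the 3 parental arrays, chosen by their titles. All 12 arrays entered the estimate of spread behind the SEs and p-values. All 12 arrays came from cells carrying a MERVL::tdTomato reporter, in which the long terminal repeat of the MERVL retrotransposon drives a red fluorescent protein. The parental group had this reporter and no other stated change. The mutant add-back group (KO+Mut) carried a Dppa2/4 knockout and had received plasmids encoding GFP-tagged, SUMO-deficient Dppa2 and Dppa4 by lipofection, after which GFP-positive cells were collected by flow cytometry. The remaining arrays, used here as reference points, were the knockout alone (KO) and the knockout given wild-type GFP-tagged Dppa2 and Dppa4 in the same way (KO+WT). The labels state neither a transfection nor a sort for the parental cells, so the handling and the add-back cannot be told apart in this comparison. Arrays of one group are labelled as biological replicates, with no separate cultures or clones named, so p-values measure the spread between these arrays.

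DPPA2 and DPPA4 are small DNA-binding proteins of pluripotent cells that bind together on chromatin and are known to activate Dux, a transcription factor gene of the early mouse embryo. DUX in turn switches on the genes and the MERVL repeats transcribed at the 2-cell stage, and a small fraction of cultured embryonic stem cells turns this 2C-like program on at any time. SUMO is a small protein joined to lysines of other proteins, often with the effect of keeping their target genes silent. The pair is also known to keep a set of germline and developmental genes free of DNA methylation. The comparison asks whether cells rebuilt with SUMO-deficient Dppa2/4 return to the parental level of each gene, exceed it (over-restoration) or stay under it (under-restoration). Both words are used below as names for the sign of a difference and include genes that the knockout had not altered.

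Levels are the deposited log2 signals, 1 value per gene for 22180 genes, and a difference of 1 is a doubling. Over all 41345 probe sets, the medians of the 6 arrays lay between 3.77 and 3.87 and their lower quartiles between 2.36 and 2.43. Levels under about 2.4 are therefore among the dimmest on the array. The 15 pairs among the 6 arrays correlated at 0.979 to 0.992, and 0 pairs held identical values. The 10 embryonic stem cell markers averaged 8.511 to 8.568 in the parental arrays and 8.575 to 8.633 in the mutant add-back arrays, close but without overlap. The 8 fibroblast markers averaged 3.79 to 4.10 and 4.01 to 4.08, and the 6 trophectoderm markers 4.00 to 4.10 and 4.03 to 4.20. The 7 primitive endoderm markers were further apart, averaging 6.09 to 6.79 in the parental and 5.52 to 5.73 in the mutant add-back arrays, with no overlap. Of these 7, 0 passed the test on their own by limma in the fit without a replicate block, and their median difference was −0.67. With replicate number as a block Dab2 and Pdgfra were called lower, as given below. The knockout arrays (5.46 to 5.93) and the wild-type add-back arrays (5.70 to 5.85) were also below the parental range. In bulk samples such as these, fewer cells of a type and less RNA per cell cannot be told apart.

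The 2 returned genes were themselves above the parental level. Dppa4 gave 8.24, 8.58 and 8.55 in the parental arrays and 10.55, 10.67 and 10.39 in the mutant add-back arrays, against 7.92, 7.63 and 7.31 in the knockout. Its difference from parental cells was 2.08 (SE 0.18, 4.22-fold, limma adjusted p = 9.05e-05). Dppa2 gave 9.35, 9.81 and 10.17 in parental cells and 11.12, 11.30 and 11.17 with the mutants, a difference of 1.42 (SE 0.21, 2.68-fold, adjusted p = 0.00529). Neither gene's 2 groups overlapped. The knockout arrays kept clear signal for both genes, and the sources used here do not give where the probes lie relative to the deleted part, so these levels check the add-back more than the knockout. With wild-type add-back Dppa4 read 10.09, 10.58 and 10.49 and Dppa2 10.79, 11.34 and 11.11. Mutant minus wild type was 0.15 for Dppa4, with a 95% interval of 0.38 to either side, and 0.12 for Dppa2, with 0.46 to either side.

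In the main fit, which has no replicate block, more genes ended above the parental level than below it, and with larger differences. In the limma fit, 145 of 22180 genes were higher in mutant add-back than in parental cells (0.654%) and 75 were lower (0.338%) at an adjusted p under 0.05, leaving 21960 that passed in neither direction. The median difference was 1.44 for the higher genes and −0.93 for the lower ones, beside −0.002 for all genes. Of the higher genes 103 changed at least 2-fold, 55 at least 4-fold and 23 at least 16-fold. Of the lower genes 29 changed at least 2-fold and 2 at least 4-fold. The groups did not overlap for any of the 145 and 75 genes, while among all genes 1915 had every mutant array above every parental array and 2080 had every one below.

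The counts moved with the settings, and so did the balance of higher to lower genes, which was near even with the replicate block. Blocking on replicate number gave 353 higher and 342 lower of the 22180 genes, including all 145 and 75. List counts given below for the block stand against these numbers and not against 0.654% and 0.338%. On the 6 arrays alone 128 were higher and 58 lower, including 111 of the 145 and 49 of the 75. Of the calls of named genes 6 were lost there, among them Cd3e (limma adjusted p = 0.104), Xpot (0.113), Tdrd9 (0.0976), Ascl2 (0.061) and Lama1 (0.064). With each array centred on its median, which shifts the median gene to −0.06, 122 were higher and 109 lower, so the share of calls that were higher went from 65.9% to 52.8%. Leaving out parental replicate 1, 2 or 3 left 82, 79 and 76 genes higher and 59, 38 and 34 lower. Leaving out KO+Mut replicate 1, 2 or 3 left 118, 70 and 91 higher and 41, 34 and 44 lower. Of the 145 higher genes 59 passed in each of these 6 fits, as did 26 of the 75 lower ones. Every gene described below as having risen or fallen passed in all 6 unless stated otherwise.

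**Figure D1:**
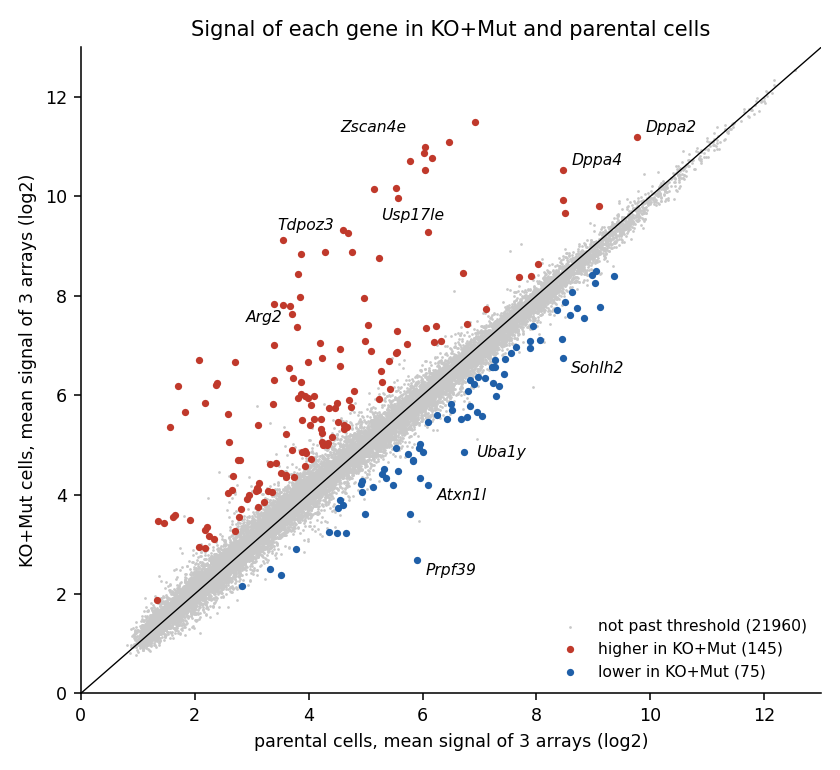
Each point is a gene, with its mean log2 signal over the 3 parental arrays on the x axis and over the 3 KO+Mut arrays on the y axis; the line marks equal signal, red points are the 145 higher genes, blue points the 75 lower genes and grey points the rest. The red cloud lies up to 5.57 above the line and mostly to the left, while the blue points, other than Prpf39 and Klb, lie within 2 of it.

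Over-restoration was led by genes of the 2C-like program. Of the 42 measured members of a list of such genes 27 rose (64.3%) and 0 fell, beside 0.654% and 0.338% of all genes. The list was chosen with earlier results of these data known, so this share is a description and not a test. Copies of a family within it may share probe signal and are not independent of each other. The list's median difference was 3.60. Between 26 and 27 rose in each of the 6 fits that left out an array, and 1 fell without KO+Mut replicate 3. With the replicate block 28 rose and 1 fell, and with array weights 29 rose and 1 fell. The 15 members that did not pass ranged from −1.11 for Pramel7 to 2.03 for Spz1, and 10 of these 15 were positive. The knockout's own list median was −0.62 against the same parental arrays, and that of the wild-type add-back was 2.77. These 3 comparisons share the parental arrays.

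The Zscan4 genes encode SCAN-domain zinc-finger proteins that mark the 2C-like state and act in telomere maintenance, and they sit side by side on chromosome 7. The RefSeq windows upstream of 3 of them are shown because a single pattern recurs there at a fixed spacing and because these genes were among the largest rises. The sequences are from GRCm38.p6, read 5′ to 3′ on the gene's strand, with Zscan4b at chr7:10905066-10905156 (minus strand), Zscan4c at chr7:11005616-11005706 (plus strand) and Zscan4d at chr7:11166198-11166288 (minus strand). Capitals mark a match to TGAT, any 2 bases and AATCA, a pattern of the kind bound by double homeodomain proteins such as DUX, and a TATAAA box.
Zscan4b: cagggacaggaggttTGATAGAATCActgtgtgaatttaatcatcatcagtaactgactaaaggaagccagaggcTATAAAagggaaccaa
Zscan4c: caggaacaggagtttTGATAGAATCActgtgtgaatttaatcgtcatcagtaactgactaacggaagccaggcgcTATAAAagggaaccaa
Zscan4d: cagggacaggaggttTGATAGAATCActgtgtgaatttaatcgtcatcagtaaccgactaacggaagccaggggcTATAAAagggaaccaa
In each window 60 bases separate the first base of the match from the first base of the TATAAA box. The 91-base stretches were identical at 85 (Zscan4b and Zscan4c), 87 (Zscan4b and Zscan4d) and 87 (Zscan4c and Zscan4d) positions.

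Searched on both strands of the 250 bases upstream of each gene, this pattern (TGAT, any 2 bases, AATCA) occurred in 38 of the 16990 measured genes with a RefSeq window (0.224%). It occurred in 3 of the 105 higher genes with a window (2.86%), the Zscan4 genes above, and in 0 of the 58 lower genes. TATAAA, which does not overlap it, occurred in 13.2% of all windows, in 16 of the 105 (15.2%), in 4 of the 58 (6.9%) and in 8 of the 26 windows of the 2C-like list (30.8%). A match describes the letters of a window and not a bound site, and the 3 near-identical copies count as 1 sequence seen 3 times.

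Zscan4c read 5.6, 6.48 and 6.43 in parental cells and 10.12, 10.65 and 11.56 with the mutants, 4.60 higher (SE 0.47, 24.3-fold, limma adjusted p = 0.000343). Zscan4b started from 4.52, 5.98 and 4.96, and its difference of 4.99 (SE 0.56, 31.9-fold, adjusted p = 0.000585) was the largest of the family. Zscan4e read 5.59, 7.06 and 6.74 in parental cells, only 2.40, 1.87 and 1.90 in the knockout, and 10.60, 11.06 and 11.63 with the mutants. It therefore ended 4.63 (SE 0.45, 24.8-fold, adjusted p = 0.000241) above parental cells after the knockout had taken it 4.41 below them. Zscan4d and Zscan4a rose by 4.60 and 4.12, with adjusted p of 0.00481 and 0.00529. Parental replicate 1 was the lowest of the 3 parental arrays for each of these 5 genes, and KO+Mut replicate 3 the highest of the mutant arrays.

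Tdpoz3, of a family of TRAF- and BTB/POZ-domain genes, showed the largest named rise. It read 3.07, 3.75 and 3.82 in parental cells and 8.75, 9.0 and 9.62 with the mutants, a difference of 5.57 (SE 0.41, 47.7-fold, adjusted p = 3.15e-05). Its neighbour Tdpoz4 rose by 1.93 (adjusted p = 0.00653), whereas Tdpoz1 and Tdpoz2 differed by −0.27 and 0.60 and did not pass. All 5 measured members of the Usp17l family, which encodes deubiquitinating enzymes, rose. Usp17le read 5.0, 6.02 and 5.70 in parental cells, 2.04, 3.09 and 2.61 in the knockout and 9.78, 9.97 and 10.19 with the mutants, a rise of 4.40 over parental cells (SE 0.32, 21.2-fold, adjusted p = 3.15e-05). Usp17lc, Usp17lb, Usp17ld and Usp17la rose by 3.79, 3.66, 3.20 and 2.05.

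The Pramel genes encode leucine-rich-repeat proteins of the PRAME family. Pramel19 read 5.29, 6.85 and 6.02 in parental cells and 10.50, 11.05 and 11.46 with the mutants, a difference of 4.95 (SE 0.46, 31.0-fold, adjusted p = 0.00015). Pramel31 rose by 4.64 from dim parental signals of 1.74, 2.37 and 2.09. Other members of the family on the list went the other way, with Pramel7 at −1.11 (adjusted p = 0.355) and Pramel6 at −0.76 (adjusted p = 0.263), so the rise was not seen for every Pramel gene. The window upstream of Pramel19, at chr4:101940157-101940406 (plus strand, GRCm38.p6, from RefSeq), is shown for its base composition, with CG dinucleotides in capitals.
Pramel19: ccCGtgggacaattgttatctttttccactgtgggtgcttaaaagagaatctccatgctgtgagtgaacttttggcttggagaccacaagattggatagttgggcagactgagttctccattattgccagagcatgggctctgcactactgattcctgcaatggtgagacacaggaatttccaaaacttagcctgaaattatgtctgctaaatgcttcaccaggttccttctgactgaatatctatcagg
It holds 1 CG. The median was 1.5 over the 26 genes of the 2C-like list with a window and 9 over the 105 higher genes. It was 11 over the 58 lower genes and 11 over all 16990 genes. For a gene with several windows the highest count was taken.

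Further members of the program followed the same pattern. Gm2022, Gm4340, Gm5662 and Gm8300 rose by 4.85, 4.57, 4.56 and 4.71, and the second probe set of Gm5662 gave 5.05. Eif4a3l1, a copy of the helicase gene Eif4a3 active at the 2-cell stage, rose by 4.49. Tcstv3, a 2-cell-stage gene, read 2.96, 3.15 and 4.05 against 7.27, 7.75 and 8.49 and rose by 4.45 (SE 0.48, adjusted p = 0.000505). Tmem92 rose by 4.62. Sp110, a nuclear body protein gene, and Arg2, the mitochondrial arginase, rose by 4.11 and 3.58 (17.3-fold and 11.9-fold). Duxf3, the Dux gene itself on this array, read 1.31, 1.78 and 1.78 in parental cells and 2.85, 3.44 and 4.33 with the mutants, a rise of 1.92 (SE 0.28, adjusted p = 0.00529). Its parental signals are below the arrays' lower quartiles, where a log2 difference can understate a change. D13Ertd608e, outside the list, rose by 4.48 from parental signals of 1.93, 1.44 and 1.77. Members of the Zscan4, Usp17l, Tdpoz and Pramel families are near-identical copies whose probe sets may share signal, so the value of a single copy is uncertain.

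**Figure D2:**
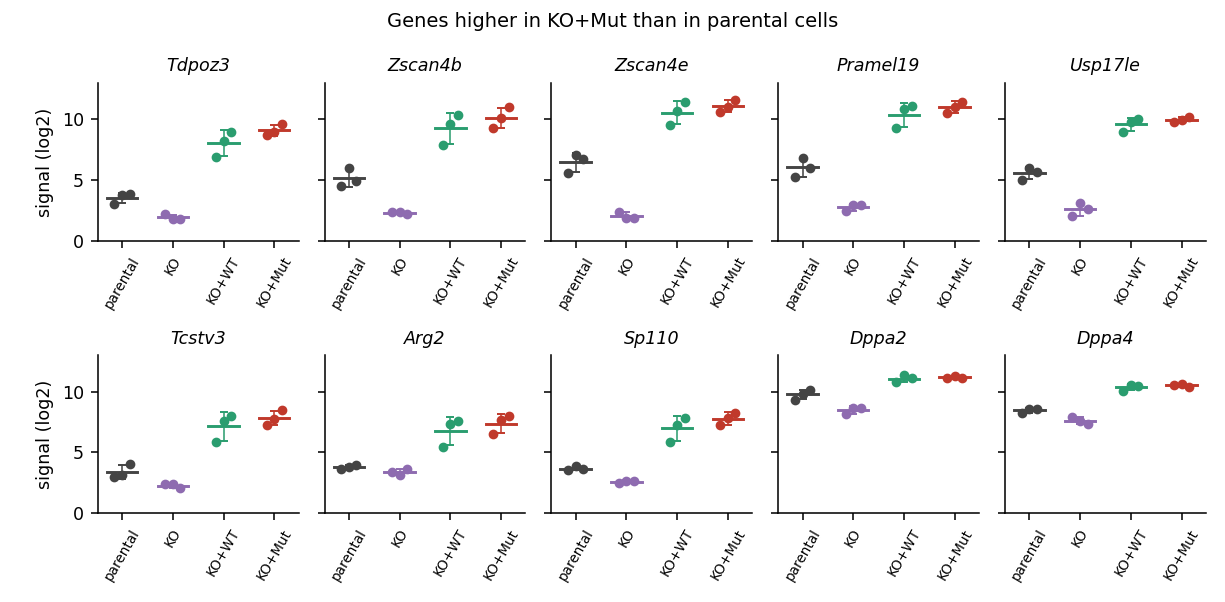
Log2 signal of 10 genes higher in KO+Mut than in parental cells, with 3 arrays per group as points, the group mean as a horizontal line and its SD as a bar. Zscan4e, Pramel19 and Usp17le drop in the KO panel columns and end above parental in both add-back groups, whereas Arg2 stays near its parental level in KO.

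Some of the higher genes lie next to each other when the measured genes are put in genome order. In the RefSeq order of measured genes, 32 of the 145 higher genes (22.1%) had another higher gene next to them. For the lower genes this was 4 of 75 (5.33%). Genes not measured may lie between such neighbours. The higher neighbours included Zscan4a to Zscan4d and 3 Usp17l genes on chromosome 7, and Tdpoz3 and Tdpoz4 on chromosome 3. They also included Gm11543 to Gm11546 with Tmem92 on chromosome 11, and AF067061 and D13Ertd608e on chromosome 13. Others were Pramel11 with Pramel16 on chromosome 4, and Hspa1a with Hspa1b on chromosome 17. Dppa2 with Dppa4 on chromosome 16 also counted, though both had been returned on plasmids. On chromosome 12 they were Dnajb9, Gm1995, Gm2016, Gm2022, Gm2027, Gm2035 and Gm2046. Copies of a family that share probes are not independent of each other, and no test was made of this count. The share for genes drawn at random was not worked out.

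In the main fit at most 2 members of each other list rose and at most 2 fell. Fbxo15, an F-box gene used as a marker of pluripotent cells, was the single member of 32 naive pluripotency genes to rise, by 0.69 (SE 0.12, limma adjusted p = 0.0134). It read 9.14, 9.07 and 9.11 against 9.76, 9.69 and 9.95, and its call was lost without parental replicate 2 (adjusted p = 0.0706), parental replicate 3 (0.0616) or KO+Mut replicate 3 (0.0636). The core factors stayed close to parental cells, with Pou5f1 at −0.08, Nanog at 0.11 and Esrrb at 0.00, none of them past the test. The list's median was −0.10. When replicate number was a block, Fbxo15 rose and 5 members fell, Lin28a (−0.84), Prdm14 (−0.59), Fgf4 (−0.53), Il6st (−0.45) and Sox2 (−0.40), with adjusted p between 0.021 and 0.0407.

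A few members of the stress-related lists rose. Hspa1b, an inducible HSP70 chaperone, read 5.36, 5.67 and 5.62 in parental cells and 6.56, 6.73 and 7.29 with the mutants, a rise of 1.31 (SE 0.20, 2.49-fold, limma adjusted p = 0.00573). Its neighbour Hspa1a rose by 1.28 (adjusted p = 0.0301), a call that held only without KO+Mut replicate 2, and was lost without parental replicate 1 (0.089), parental replicate 2 (0.0814), parental replicate 3 (0.136), KO+Mut replicate 1 (0.063) or KO+Mut replicate 3 (0.0776). These were 2 of 20 heat shock chaperones, whose list median was −0.06. Hspa1b read 6.10, 6.26 and 5.68 with wild-type add-back, and mutant minus wild type was 0.85 with a 95% interval of 0.43 to either side, though it did not pass after adjustment over all genes (adjusted p = 1). Fos, an AP-1 transcription factor, rose by 0.94 (adjusted p = 0.0247), 1 of 19 immediate early genes. Its call was lost without parental replicate 1 (0.0964), 2 (0.0958) or 3 (0.0669), or KO+Mut replicate 1 (0.0937) or 2 (0.12). In the blocked fit 2 immediate early genes rose.

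Of 31 ATF4 and unfolded-protein-response genes 2 rose, and both lost the call after median centring. Dnajb9, an endoplasmic reticulum co-chaperone, rose by 0.76 (adjusted p = 0.0331) and Xpot, the tRNA exporter, by 0.50 (adjusted p = 0.0306). Dnajb9 kept its call only without parental replicate 3, its adjusted p in the other 5 fits being 0.122 without parental replicate 1, 0.153 without parental replicate 2, 0.0587 without KO+Mut replicate 1, 0.128 without replicate 2 and 0.126 without replicate 3. Xpot lost its call in all 6 fits, at 0.126, 0.136 and 0.0726 without parental replicate 1, 2 or 3 and 0.101, 0.0915 and 0.108 without KO+Mut replicate 1, 2 or 3. Ddit4l, a regulator of mTOR signalling, was 1 of 25 p53-list genes to rise, by 1.22 (adjusted p = 0.0247), and its call was lost without parental replicate 1 (0.0942) or 2 (0.0586) or KO+Mut replicate 1 (0.0645), 2 (0.128) or 3 (0.0591). The blocked fit had 3 p53-list genes that rose, as did 3 of the ATF4 and unfolded-protein-response list.

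Germline genes split. Tdrd6 and Tdrd9, Tudor-domain genes of the germline, rose by 0.90 (adjusted p = 0.0179) and 0.64 (adjusted p = 0.027), and Sohlh2 fell, as described below, among 44 measured members whose median was −0.06. Tdrd6 lost its call without parental replicate 2 (0.0843) or 3 (0.0908) or KO+Mut replicate 2 (0.107) or 3 (0.0527). Tdrd9 lost it without parental replicate 1 (0.101) or 3 (0.128) or KO+Mut replicate 1 (0.0746) or 2 (0.137). With the replicate block 3 members rose and 7 fell, where 353 and 342 of all 22180 genes did.

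Among 28 imprinted genes, Grb10 and Ascl2 rose. Grb10, an adaptor that restrains insulin signalling, read 5.27, 5.34 and 4.53 in parental cells and 7.99, 7.67 and 6.56 with the mutants, a difference of 2.36 (SE 0.46, 5.13-fold, adjusted p = 0.0299). Replicate 3 was the lowest array of both groups, and with the replicate block the adjusted p was 5.79e-05. The call was lost without parental replicate 1 (0.0764), 2 (0.0757) or 3 (0.136), or KO+Mut replicate 1 (0.117) or 2 (0.143). The knockout already stood 2.06 above parental cells (adjusted p = 0.13), with 7.58, 7.57 and 6.16. Ascl2, a trophoblast transcription factor that is also the 1 riser of 23 trophectoderm genes, rose by 0.68 (adjusted p = 0.0247). Its call was lost without parental replicate 1 (0.0598), 2 (0.127) or 3 (0.0638), or KO+Mut replicate 2 (0.128) or 3 (0.0619). Snai1, 1 of 23 mesoderm genes, rose by 1.26 (adjusted p = 0.0375), a call lost in all 6 fits, at 0.139, 0.0706 and 0.144 without parental replicate 1, 2 or 3 and 0.0552, 0.181 and 0.0773 without KO+Mut replicate 1, 2 or 3. Under the block 3 imprinted genes rose and 1 fell, 1 trophectoderm gene rose and 3 fell, and 1 mesoderm gene rose and 1 fell.

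Under-restoration was led by Prpf39, which encodes a component of the U1 small nuclear ribonucleoprotein. It read 5.68, 6.06 and 5.99 in parental cells, 2.34, 2.62 and 2.48 in the knockout and 2.51, 2.80 and 2.73 with the mutants. The difference from parental cells was −3.23 (SE 0.15, 9.39-fold lower, limma adjusted p = 3.17e-07), and mutant minus knockout was 0.20 (adjusted p = 0.636). With wild-type add-back it read 1.99, 2.25 and 2.37, so that all 3 groups derived from the knockout sat together at the dim end of the array. Atxn1l, a relative of the ataxin-1 gene, gave the same picture, with 6.09, 6.25 and 5.95 in parental cells and 4.12, 4.25 and 4.20 with the mutants. Its difference was −1.91 (SE 0.15, 3.76-fold lower, adjusted p = 4.04e-05), beside −2.09 for the knockout.

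Uba1y, a Y-linked ubiquitin-activating enzyme gene, read 6.70, 6.92 and 6.59 against 4.45, 5.03 and 5.07 and fell by 1.88 (SE 0.21, adjusted p = 0.000571). It was the 1 member of 10 X-inactivation and Y-linked genes to pass, while the Y-linked Kdm5d, Eif2s3y and Usp9y differed by −0.76, −0.27 and 0.23 and did not pass.

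Sohlh2, a transcription factor of early germ cells, was the 1 germline gene of the list that fell. It read 8.36, 8.31 and 8.71 in parental cells, 5.62, 5.82 and 6.31 in the knockout and 6.6, 6.59 and 7.07 with the mutants. The shortfall from parental cells was −1.71 (SE 0.24, 3.26-fold lower, adjusted p = 0.00366), and mutant minus knockout was 0.84 (adjusted p = 0.136). Its upstream window, at chr3:55181794-55182043 (plus strand, GRCm38.p6, from RefSeq), is shown as the counterpart of the Pramel19 window, with CG dinucleotides in capitals.
Sohlh2: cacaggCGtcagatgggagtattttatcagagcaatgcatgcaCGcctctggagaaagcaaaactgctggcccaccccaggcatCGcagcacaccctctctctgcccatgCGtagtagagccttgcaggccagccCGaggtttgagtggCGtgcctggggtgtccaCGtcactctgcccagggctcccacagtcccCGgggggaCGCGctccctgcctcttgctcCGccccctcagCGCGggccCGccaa
It holds 14 CG, against 1 for Pramel19 and a median of 11 over all genes with a window.

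Klb, the co-receptor beta-Klotho, read 5.18, 5.77 and 6.42 in parental cells and 3.52, 3.73 and 3.58 with the mutants, a fall of 2.17 (SE 0.34, 4.51-fold, adjusted p = 0.00653), while the knockout's difference of −1.21 did not pass (adjusted p = 0.295). Gldc, the glycine decarboxylase, fell by 1.34 from 9.05, 9.18 and 9.11 (adjusted p = 0.000941). Scml2, a Polycomb-group gene, and Nxf7, a nuclear RNA export factor relative, fell by 1.63 and 1.42. Cd200, a membrane glycoprotein, and Gask1b fell by 1.28 and 1.21. Car4, a carbonic anhydrase, fell by 1.14 (adjusted p = 0.00102), and Nckap1l, an actin regulator of blood cells, by 1.03.

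Other large falls lost their call in several of the 6 fits that left out an array, while their differences stayed negative in each. Podxl, a sialomucin, fell by 1.28 (limma adjusted p = 0.0163), with the call lost without parental replicate 3 (0.0726) or KO+Mut replicate 1 (0.0604) or 3 (0.0662). Prtg, protogenin, fell by 1.29 (adjusted p = 0.0279), with the call lost without parental replicate 1 (0.119) or 3 (0.102) or KO+Mut replicate 2 (0.117) or 3 (0.112). Rhox5, an X-linked homeobox gene, fell by 1.15 (adjusted p = 0.0107), with the call lost without parental replicate 2 (0.0673) or 3 (0.0617) or KO+Mut replicate 2 (0.0617). Cd3e, a T-cell receptor subunit gene, fell by 1.15 (adjusted p = 0.0328), and its call was lost without parental replicate 2 (0.144) or 3 (0.101) or KO+Mut replicate 1 (0.0525), 2 (0.0537) or 3 (0.0969).

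**Figure D3:**
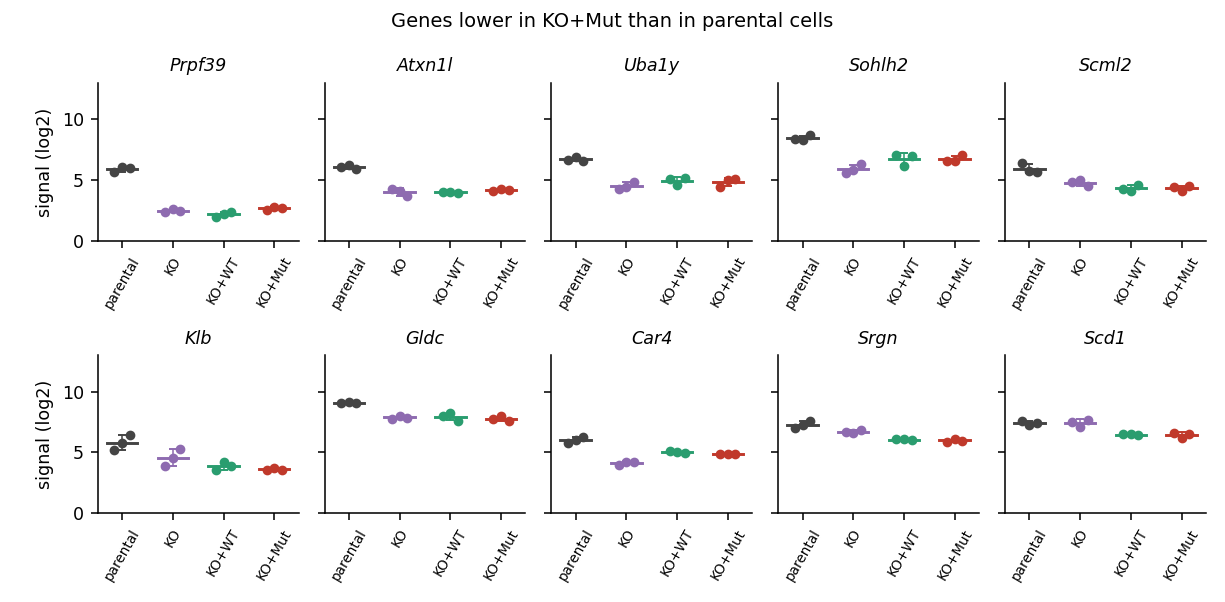
Log2 signal of 10 genes lower in KO+Mut than in parental cells, with 3 arrays per group as points, the group mean as a horizontal line and its SD as a bar. Prpf39, Atxn1l and Uba1y sit together in KO, KO+WT and KO+Mut, Sohlh2 and Car4 lie between KO and parental levels with the mutants, and Scd1 is lower in the 2 add-back groups but not in KO.

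Lipid synthesis and matrix genes made up most of the remaining list members that fell. Of 28 sterol and fatty acid synthesis genes 2 fell and 0 rose, 24 were negative, and the list's median was −0.35. Me1, malic enzyme, fell by 0.82 (SE 0.11, limma adjusted p = 0.0022). Scd1, stearoyl-CoA desaturase, read 7.63, 7.27 and 7.40 in parental cells, 7.53, 7.08 and 7.70 in the knockout and 6.57, 6.17 and 6.53 with the mutants, a fall of 1.01 (SE 0.17, adjusted p = 0.0107). The Scd1 call was lost without parental replicate 1 (0.0528) or KO+Mut replicate 2 (0.0627). Mutant minus knockout for Scd1 was −1.01 (adjusted p = 0.00863). With the replicate block 6 members of the list fell, and with median centring 3 did.

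Srgn, the proteoglycan serglycin, was the 1 member of 24 primitive endoderm genes that fell, by 1.31 (SE 0.14, adjusted p = 0.000383) from 7.05, 7.28 and 7.57 to 5.90, 6.07 and 5.98. Of the 24 members 22 were negative, with a median of −0.31. The list's median was −0.26 for knockout minus parental and 0.004 for mutant minus knockout. Cubn, Dab2 and Pdgfra, which encode an endocytic receptor, its adaptor and a growth factor receptor of this lineage, differed by −2.46, −1.85 and −1.76, with adjusted p of 0.0605, 0.0634 and 0.0589. With the replicate block these were 0.00263, 0.00597 and 5.81e-05, and 4 members fell. The laminin genes Lamb1 and Lama1, 2 of 17 basement membrane genes, each fell by 0.95 (adjusted p = 0.0107 and 0.0301). Lamb1 lost its call without KO+Mut replicate 3 (0.0527), and Lama1 without parental replicate 2 (0.132) or 3 (0.141) or KO+Mut replicate 1 (0.118), 2 (0.0556) or 3 (0.0941). These falls run beside the lower primitive endoderm marker level given above, whose part in them was not tested.

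In 6 lists no member passed in either direction in the main fit. The formative and primed pluripotency list (24 genes) had a median of −0.09, with Tead2 at −0.55 and Sox3 at 0.69 as the members of smallest p (adjusted p = 0.0894 and 0.105). With the replicate block 3 of its members were higher and 6 lower. Tead2 also passed with trend and robust variances (limma adjusted p = 0.0473) and with array weights (0.0266). Sox3 passed with array weights (0.0468) and without parental replicate 1 (0.0463). The neuroectoderm (20 genes), fibroblast (25 genes) and interferon response (26 genes) lists had medians of 0.02, 0.06 and 0.03, each of which turned negative with median centring. The members of smallest p were Otx1 (0.43) and Pax3 (0.32), Thbs1 (0.47) and Vim (−0.50), and Xaf1 (0.56) and Stat2 (−0.47) respectively. Of 33 SUMO pathway and silencing genes 30 were negative, with a median of −0.12, led by Ehmt1 at −0.34 and Senp5 at −0.40. The DNA methylation list (16 genes) had a median of −0.15, with Tet3 at 0.42 and Uhrf2 at −0.36. With array weights 1 of its members rose. Under the replicate block Thbs1 rose (adjusted p = 0.017) and Vim fell (0.00999) in the fibroblast list, 1 SUMO pathway gene fell (Chaf1b, 0.0338), and the DNA methyltransferase genes Dnmt3a (0.0193) and Dnmt3b (0.000973) fell. The neuroectoderm and interferon lists had 0 calls with the block. Within the Dppa family only the 2 returned genes rose, Dppa3 being at −0.74 (adjusted p = 0.202), Dppa1 at −0.20 and Dppa5a at 0.05.

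**Figure D4:**
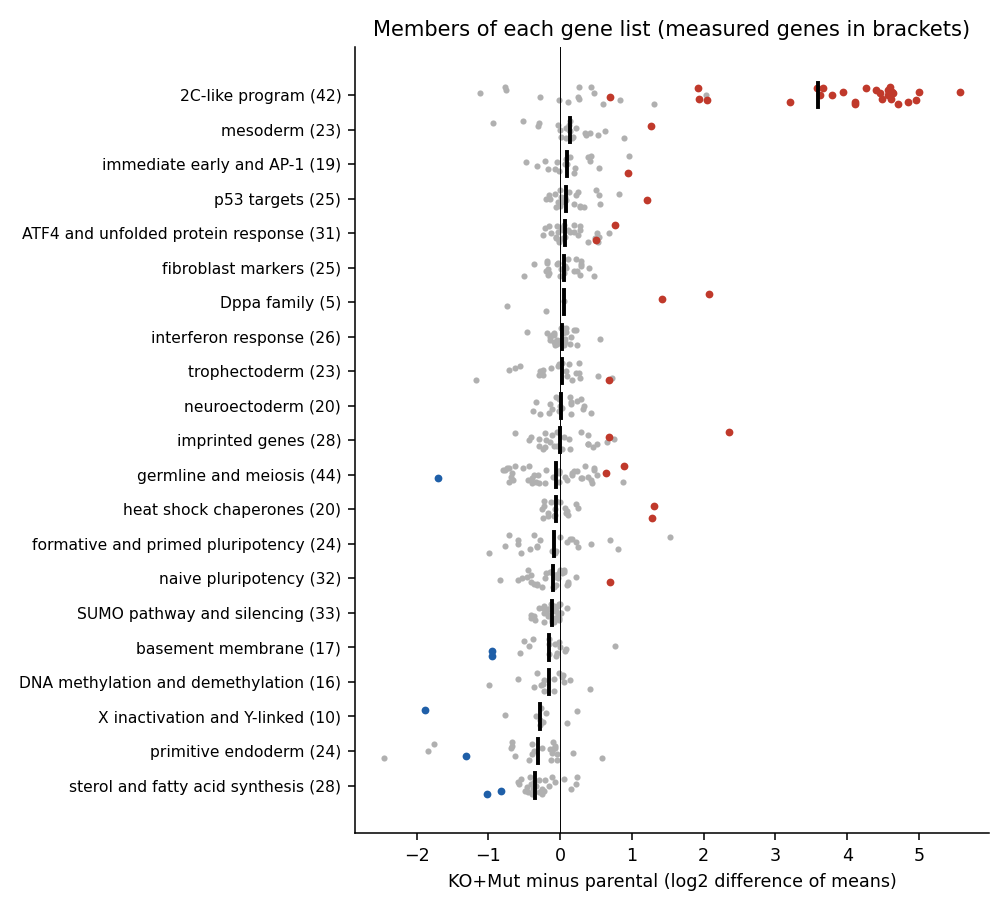
Each point is a measured member of a gene list, placed on the x axis by its KO+Mut minus parental log2 difference, with lists ordered by their median (black bar), members past the threshold in red (higher) or blue (lower) and the rest in grey. The 2C-like list, with a median of 3.60, stands far to the right of the others, whose medians run from −0.35 to 0.13.

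The genes the knockout had changed show where the mutants stopped. Against the same parental arrays, 45 genes were lower in the knockout (0.203%) and 8 higher (0.0361%). Of the 45 lower genes 7 ended above parental cells with the mutants, 23 stayed below them and 15 passed in neither direction. Of the 8 higher genes 3 stayed above, 0 ended below and 5 passed in neither direction. Both comparisons use the same parental arrays, so a high or low parental array moves both, and these counts are a description. They also shrink or grow with the settings. Without parental replicate 1, 2 or 3 the knockout had 29, 19 and 21 lower genes, split 6, 3 and 4 above, 16, 11 and 12 below and 7, 5 and 5 in neither direction. With the replicate block they were 97 lower genes, split 11, 40 and 46. Of the 45, 16 were called lower in the knockout in all 6 fits that left out a parental or a knockout array, and of the 8 higher ones 0 were.

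The 7 that overshot were Zscan4e, Gm11543, Pramel19, Usp17le, Gm2046, Gm5662 and Dppa2, and all 7 were also higher than in the knockout. Gm11543 went from 4.07 below parental cells in the knockout to 4.94 above them with the mutants, and Usp17le from 2.99 below to 4.40 above. The knockout call of Pramel19 was lost without parental replicate 2 (0.0505) or knockout replicate 1 (0.0515), and those of Gm5662, Gm2046 and Dppa2 were lost in 6, 4 and 5 of the 6 fits. Without parental replicate 2 or 3 their knockout adjusted p was 0.192 and 0.169 (Gm5662), 0.197 and 0.186 (Gm2046) and 0.131 and 0.139 (Dppa2). Without knockout replicate 1 or 2 it was 0.0786 and 0.142, 0.176 and 0.216, and 0.112 and 0.068. Without parental replicate 1 it was 0.0732 for Gm5662, and without knockout replicate 3 it was 0.156 for Gm5662 and 0.0669 for Dppa2.

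The 23 that stayed below differed from their knockout levels by −0.45 (Scml2) to 0.84 (Sohlh2). Of these, 1 passed against the knockout, Car4, which read 5.74, 6.03 and 6.24 in parental cells, 4.00, 4.22 and 4.24 in the knockout and 4.84, 4.88 and 4.86 with the mutants. Its rise over the knockout of 0.71 (limma adjusted p = 0.0209) was lost in all 6 fits of that comparison, at 0.0955, 0.0607 and 0.0524 without knockout replicate 1, 2 or 3 and 0.0674, 0.0955 and 0.0641 without KO+Mut replicate 1, 2 or 3. Mutant minus knockout was 0.32 for Uba1y (adjusted p = 0.586), 0.47 for Nckap1l (0.145), 0.62 for Cd3e (0.278), −0.12 for Gldc (0.819) and −0.24 for Nxf7 (0.592). A p that misses the threshold does not show that these genes were the same in both.

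The 15 in between included germline genes. Ddx4, the VASA helicase of germ cells, read 5.6, 5.55 and 5.38 in parental cells and 5.77, 5.59 and 5.14 with the mutants, a difference of −0.01 (adjusted p = 0.993), after a knockout difference of −1.41. Mutant minus knockout for Ddx4 was 1.40 (adjusted p = 0.000646). Dazl, an RNA-binding protein of germ cells, read 6.39, 6.70 and 6.78 against 6.91, 7.12 and 7.19, a difference of 0.45 that did not pass (adjusted p = 0.307), and stood 1.8 above the knockout (adjusted p = 8.65e-05). Syce1, a synaptonemal complex gene, remained at −0.67 (adjusted p = 0.2) after −1.45 in the knockout, and was not past the threshold against the knockout either (0.78, adjusted p = 0.104). Its knockout call was lost without parental replicate 2 (0.0503) or knockout replicate 1 (0.0514) or 2 (0.068). Of the 15 genes 9 were higher with the mutants than in the knockout. Ddx4 and Dazl were named after their values were seen.

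Of the genes the knockout had raised, Xpot, Zfp40 and 1700108F19Rik stayed above parental cells. Zfp40, a zinc-finger gene, read 3.20, 3.30 and 3.13 in parental cells and 3.91, 3.83 and 3.82 with the mutants, a difference of 0.64 that was equal to the knockout's 0.64. The mutant call of Zfp40 was lost without parental replicate 3 (0.0614), and that of 1700108F19Rik (1.71) without parental replicate 1 (0.0521) or 2 (0.0673) or KO+Mut replicate 3 (0.0527). Sult4a1, Ccdc38, Sdr39u1 and Sh3bgrl were at 0.47, 0.36, 0.35 and 0.26 with the mutants after 0.81, 0.77, 0.77 and 0.72 in the knockout, and 0 of the 5 genes in neither direction passed against the knockout.

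**Figure D5:**
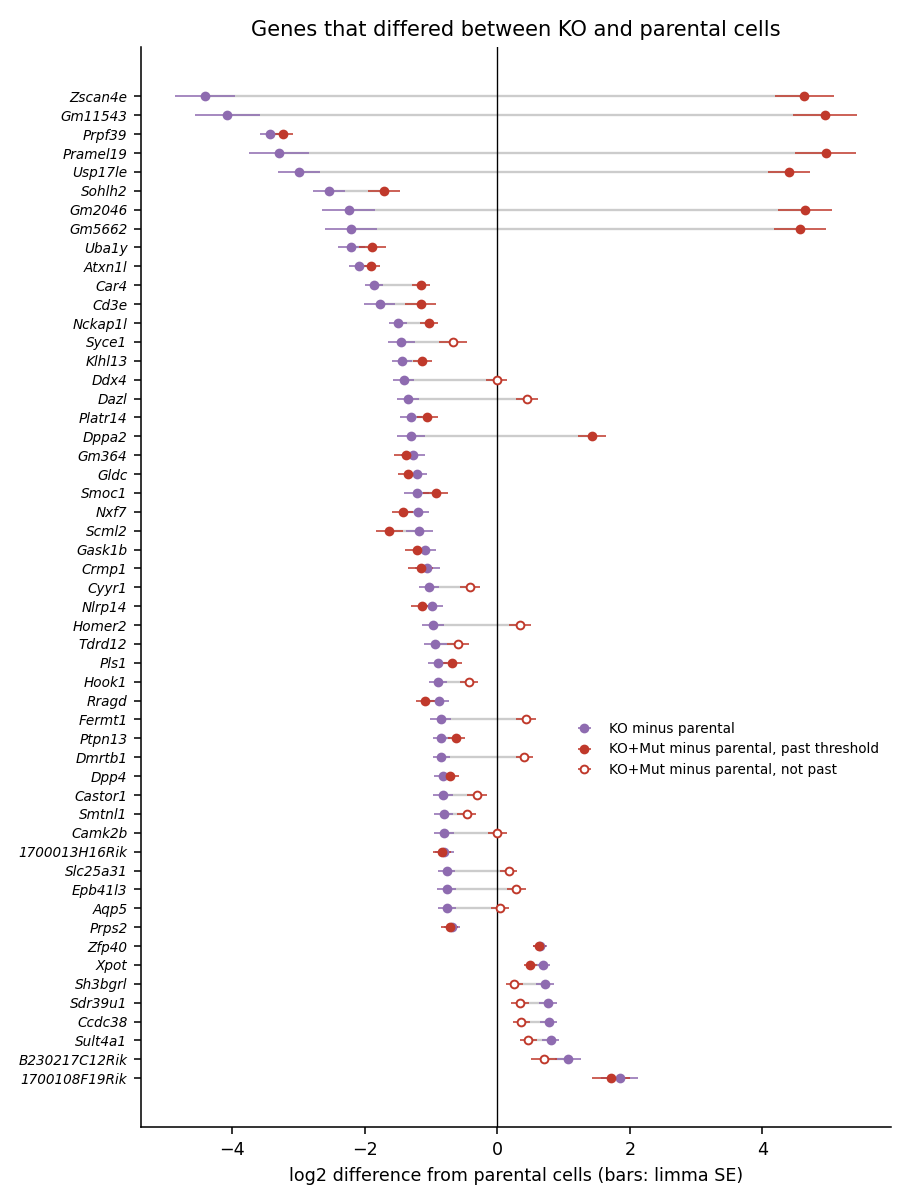
The 53 genes that differed between knockout and parental cells, ordered by that difference, with the KO minus parental (purple) and KO+Mut minus parental (red) log2 differences joined by a line and bars for the limma SE; open red points did not pass. Zscan4e, Gm11543, Pramel19, Usp17le, Gm2046, Gm5662 and Dppa2 cross 0 to the right, while Prpf39, Uba1y and Atxn1l stay beside their knockout values.

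Most called genes were outside that set. Of the 145 higher genes 135 had not passed in the knockout against parental cells, and 118 were also above the knockout, where 1.12% of all genes were higher. Of the 75 lower genes 52 had not passed in the knockout, and 7 were also below it, where 0.153% of all genes were lower, among them Scd1 and Srgn (mutant minus knockout −0.73, adjusted p = 0.0187). Srgn lost that call in all 6 fits, at 0.0553, 0.0516 and 0.0857 without knockout replicate 1, 2 or 3 and 0.0778, 0.0592 and 0.0582 without KO+Mut replicate 1, 2 or 3. Scd1 lost it without KO+Mut replicate 2 (0.0564).

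Several of the genes that fell are X-linked. Of the 75 lower genes 12 lie on the X chromosome (16%), against 905 of 22139 measured genes with a known chromosome (4.09%) and 2 of the 145 higher genes (1.38%). The 12 include Nxf7, Scml2, Rhox5, Klhl13 and Gm364, and their values were known when the share was counted, which was not tested. The median difference over all 905 X-linked genes was −0.02. Klhl13 fell by 1.13 (limma adjusted p = 0.00196) and Gm364 by 1.38 (adjusted p = 0.00196), beside −1.43 and −1.27 in the knockout. Small nucleolar RNAs of the Snora class also appeared among the falls, 4 of 26 measured against 0.338% of all genes, as seen after the fact. Snora74a read 6.81, 7.11 and 7.21 in parental cells, and 5.24, 5.65 and 5.85 with the mutants. Its fall of 1.47 (adjusted p = 0.0132) was lost without parental replicate 2 (0.0681) or 3 (0.0714) or KO+Mut replicate 1 (0.0563) or 2 (0.0566).

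No gene passed the test between mutant and wild-type add-back. The wild-type cells had 71 genes above (0.32%) and 51 below (0.23%) the same parental arrays, and the difference itself was tested as mutant minus wild type. In limma 0 of 22180 genes passed in either direction, with 675 at an unadjusted p under 0.05 and a smallest adjusted p of 0.0832. Among the 220 genes that differed from parental cells the add-backs were at most 1.31 apart, with a median 95% half-width of 0.41. For Tdpoz3 mutant minus wild type was 1.08 (half-width 0.89), for Zscan4e 0.55 (0.98), for Usp17le 0.38 (0.69), for Prpf39 0.48 (0.32) and for Sohlh2 0.02 (0.52). Wild-type replicate 1 was the lowest of its group for the first 4, at 6.89, 9.53, 9.0 and 1.99. The half-widths are not adjusted for the number of genes, and Tdpoz3 and Prpf39 exceeded theirs without passing, so that differences somewhat larger than these bounds can also be missed. The missing calls do not show that the forms act alike.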

How the data were processed

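RNA of the 6 arrays compared, and of the other 6, had been hybridised to an Affymetrix array. The values used are the log2 signals deposited by the authors, normalized with the Transcriptome Analysis Console per the submitters' processing notes; the sources used here give neither its version, its normalization nor a genome build. Of 41345 probe sets, 23521 had 1 symbol, 1814 several and 16010 none, and the symbols of 23328 were checked against RefSeq. Each gene is its single-symbol probe set of highest mean, for 22180 genes (1082 with more than 1). Groups came from titles. limma 3.58.1 in R 4.3.3 (lmFit, eBayes, 1 mean per group, 12 arrays) gave two-sided p-values, adjusted by Benjamini-Hochberg over all genes, with a threshold of 0.05 for each of 5 comparisons. With 3 arrays per group the median 95% half-width was 0.344. On simulated data for the mutant against parental comparison (22180 genes), 43 of 50 genes changed by −1, 42 of 50 by 1, and 50 of 50 by 2 and by 3 were recovered, with 8 false calls. The simulated noise was independent between arrays, unlike that of the real arrays described next. Same-numbered parental and mutant arrays deviated together (r of 0.327, 0.130 and 0.364, each above 0.1), as paired arrays would. The main fit has no term for replicate number, so its SEs and p-values use no pairing. Fits with replicate number as a block are given beside it. The members and the 21 gene lists (515 of 575 entries measured) were chosen with earlier results of these data known. Named genes are the 15 largest rises and falls without overlap, without unlisted predicted, chemosensory receptor, snoRNA and microRNA genes, up to 4 passing members of each list by smallest p (2 where none passed), Dppa2, Dppa4, and the 12 largest falls and 6 largest rises of the knockout; others, such as family members, were named after their values were seen. Promoter windows are RefSeq's. No detection calls were used.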

Additional observations from a re-analysis of the deposited data

Results flagged for a closer look

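Signal outside the single-symbol probe sets was tested apart, with its own limma fit. Of the 16010 probe sets with no gene symbol, 58 were higher in mutant add-back than in parental cells and 12 lower, with a largest difference of 7.67. Of the 1814 probe sets with several symbols, 62 were higher and 6 lower, with a largest difference of 5.35. These 58 and 62 probe sets are given because they lie outside the genes described and were above the parental arrays; most probe sets of either kind passed in neither direction. They are not named here.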

How the results depend on the processing

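Against 145 higher and 75 lower genes, the replicate block gave 353 and 342 and array weights gave 282 and 173, each with all 145 and 75 among them. Fits that left out 1 array gave 70 to 118 higher and 34 to 59 lower. The other settings stayed within 1.5 times: repeated quantile normalization (129 and 75), median centring (122 and 109), a filter on genes below percentile 25 (160 and 103), trend and robust variances (155 and 108), the 6 arrays alone (128 and 58) and the mean of probe sets (146 and 73). Mutant against wild-type add-back gave 0 genes in every setting. Of 53 named calls, 0 were lost with the block, 2 with centring, 6 with the 6 arrays alone and 11 to 15 without 1 array, and the block added 5. With 3 arrays per group the median 95% half-width of 0.34 is not adjusted for the number of genes. Larger differences were needed for a call, the smallest rise called being 0.50 and the smallest fall −0.53. Dim signals have no measured floor.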
